A study of Mus musculus with 34 samples.

Results

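The comparison concerns the lowest and the next lowest label number of one culture condition, Tfh2_2e4 against Tfh2_1e4. It holds every library of these 2 groups, chosen by the group code in the library title: 5 libraries of Tfh2_2e4 (numbered 1, 2, 4, 5 and 6) and 6 of Tfh2_1e4 (numbered 1 to 6), together 11 of 34 libraries. The other libraries belong to Tfh2_4e4 (6), Tfh2_6e4 (6), Tfh5_4e4 (6) and TfhA_4e4 (5). The series title names TGF-β, TFH and TH17 fates and c-Maf, and its design text lists the 6 conditions by code. All cells were naive CD4 T cells of the C57BL/6 mouse strain, activated on plate-bound antibodies to CD3 and CD28, cultured for 3.5 days and sorted into Trizol LS before total RNA was taken. Both groups therefore share strain, starting cell, activation and time, and by their codes differ in the number alone, 1e4 or 2e4. The sources used here do not say what the number counts, what the code Tfh2 holds in cytokines or inhibitors, or which gate the cells were sorted by. They also do not say whether the numbered libraries came from separate mice or cultures. Each p-value therefore sets a difference against the spread between libraries, which may be technical. For the gene tests that spread was estimated over all 34 libraries, within their groups.

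T follicular helper (TFH) cells are CD4 T cells that help B cells in germinal centres, in part through the cytokine IL-21, and TH17 cells are the CD4 subset that makes IL-17A and IL-17F. TGF-β signals through receptor kinases to SMAD proteins and has roles in both fates, and the transcription factor c-Maf (Maf) drives Il21 and Il10 in T cells. When oxygen is low, prolyl hydroxylases cease to mark HIF-1α for decay, and the factor then binds short DNA sites with the core ACGTG or GCGTG near genes of glucose uptake, glycolysis, mitophagy and blood vessel growth. HIF-1α also accumulates in activated T cells with signals from the antigen receptor and mTOR.

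Each library is a 3′ mRNA library, in which reads fall near the end of the transcript and are counted per gene. Totals ran from 8272173 to 9245808 counts in Tfh2_1e4 and from 5453857 to 9003008 in Tfh2_2e4. The 2 identifiers with the most counts, neither of which had a symbol in the annotation used, took 45.5 ± 3.37% of counts in Tfh2_1e4 (SD, n = 6) and 46.1 ± 3.97% in Tfh2_2e4 (SD, n = 5; exact two-sided permutation p = 0.814). Mitochondrial rRNA took 8.41 ± 1.48% and 9.38 ± 0.685% of the remaining counts (exact two-sided permutation p = 0.212, where 0.00433 is the smallest p that 5 against 6 libraries allow). Replicate 6 stood apart in both groups by its number of genes with a count, 13137 in Tfh2_1e4 and 13239 in Tfh2_2e4, against 12290 to 12621 in the other 9 libraries. In each group it also had the lowest share of the 2 identifiers, 39.2% in Tfh2_1e4 and 40.6% in Tfh2_2e4. It likewise had the most remaining counts, 5336398 and 5343465, so its count of genes is not apart from its depth. Results that rest on Tfh2_2e4 replicate 6 are therefore given with and without it. All 10 T cell markers were tested and summed to 2121 to 2484 counts per 1000000 (CPM) in Tfh2_1e4 and 2301 to 2679 CPM in Tfh2_2e4. Of these markers 1, Cd28, rose (1.45-fold), where 4.06% of all genes tested rose. Of 13 myeloid and dendritic markers none passed the filter on low counts, and they summed to 0.311 to 2.38 CPM and 0.945 to 2.13 CPM. Markers of CD8 T and NK cells summed to 8.03 to 16.5 CPM and 7.69 to 16.4 CPM, those of erythroid cells and platelets to 0 to 0.785 CPM and 0 to 0.703 CPM. The B cell list summed to 10.1 to 22.4 CPM and 6.05 to 27.9 CPM, with Ms4a1, Pax5 and Cd22 at 0 counts in all 11 libraries. Of its 8 members 2 were tested and 1, Ebf1, rose (log2 fold change 2.28), beside the same 4.06% of all genes tested. That call was lost without Tfh2_2e4 replicate 6 (1.42 on the log2 scale).

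Between Tfh2_1e4 and Tfh2_2e4, 597 of 11357 genes tested changed (5.26%) by edgeR's quasi-likelihood test with Benjamini-Hochberg adjusted p under 0.05. Of these, 461 were higher (4.06%) and 136 lower (1.2%) in Tfh2_2e4, 178 and 31 of them by more than 2-fold. The median log2 fold change over all genes tested was 0.02. The libraries of the groups did not overlap for 278 genes that were higher (2.45%) and for 174 that were lower (1.53%). Without Tfh2_2e4 replicate 6, 516 genes changed, 407 higher and 109 lower, and 458 of these were among the 597. Without Tfh2_2e4 replicate 5, the shallowest library, 76 genes were lower and 352 higher. Fitted on the 11 libraries alone, the split was 292 higher and 175 lower, so that 62.5% of calls were higher against 77.2% in the fit of all 34 libraries. Of the 597 genes, 411 were called again in the fit of the 11 libraries and 186 were not. Of the 10 largest rises (those with no overlap of libraries and a mean log2 CPM no lower than 3), 4 were in the lists of hypoxia response or glycolysis genes. Samples here are bulk RNA, so fewer cells of a type and less RNA per cell cannot be told apart.

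Slc2a3 encodes GLUT3, a high-affinity glucose transporter (identifier 20527, chromosome 6, 122727809 to 122802363; all coordinates are of GRCm38.p6). In Tfh2_1e4 its lowest, median and highest levels were 8.59, 11.4 and 12.4 CPM. In Tfh2_2e4 the 5 libraries held 36.7, 65.2, 64.4, 90.8 and 56.5 CPM, in the order of their numbers. All 5 lay above all 6, with replicate 1 the lowest and replicate 5 the highest of the group. The fitted change was 5.80-fold (log2 fold change 2.54, SE 0.156, adjusted p = 4.36e-16 by edgeR's quasi-likelihood test), and 2.56 on the log2 scale without replicate 6. The levels went on to 270 ± 55.6 CPM in Tfh2_4e4 and 416 ± 28.9 CPM in Tfh2_6e4 (SD, n = 6 each).

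Ndrg1, a stress gene widely used as a marker of hypoxia, lies on chromosome 15 (66929318 to 66969641; identifier 17988). Its levels in Tfh2_1e4 were 6.02, 11.5 and 16.1 CPM (lowest, median and highest). The Tfh2_2e4 libraries held 47.8, 70.1, 82.7, 86.6 and 46.2 CPM. The groups were again apart, with the lowest Tfh2_2e4 library, replicate 6, at more than the highest Tfh2_1e4 library. The change was 5.84-fold (log2 fold change 2.55, SE 0.166, adjusted p = 1.89e-15) and 2.64 on the log2 scale without replicate 6.

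Selenbp1, a selenium-binding protein that acts as a methanethiol oxidase, was near absent at the lower number (identifier 20341, chromosome 3, 94933083 to 94944758). It had 7 counts over the 6 Tfh2_1e4 libraries, 3 of which held none, and the others 0.196 to 0.327 CPM. The Tfh2_2e4 libraries held 3.02, 4.35, 2.95, 8.70 and 4.91 CPM, 176 counts in all. No library of one group reached the range of the other, and replicate 5 was the highest. The fitted change was 34.3-fold (log2 fold change 5.10, SE 0.472, adjusted p = 5.01e-11), a size that rests on the 7 counts. The mean level was 30.3 ± 10.6 CPM in Tfh2_4e4 and 50.1 ± 9.11 CPM in Tfh2_6e4 (SD, n = 6 each).

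Il21, the cytokine of TFH cells, rose as well but by less (identifier 60505, chromosome 3, 37222759 to 37232636). Its lowest, median and highest levels in Tfh2_1e4 were 60.3, 66.6 and 85.0 CPM. The Tfh2_2e4 libraries held 89.4, 92.3, 113, 96.8 and 119 CPM. The groups did not overlap, and the gap between the highest Tfh2_1e4 library and the lowest Tfh2_2e4 library was narrow. The change was 1.48-fold (log2 fold change 0.56, SE 0.118, adjusted p = 0.00115) and 0.49 on the log2 scale without replicate 6 (adjusted p = 0.0105). Unlike the other 3 genes, its mean did not climb further: it was 75.3 ± 14.6 CPM in Tfh2_4e4 and 62.2 ± 8.71 CPM in Tfh2_6e4 (SD, n = 6 each).

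**Figure D1:**
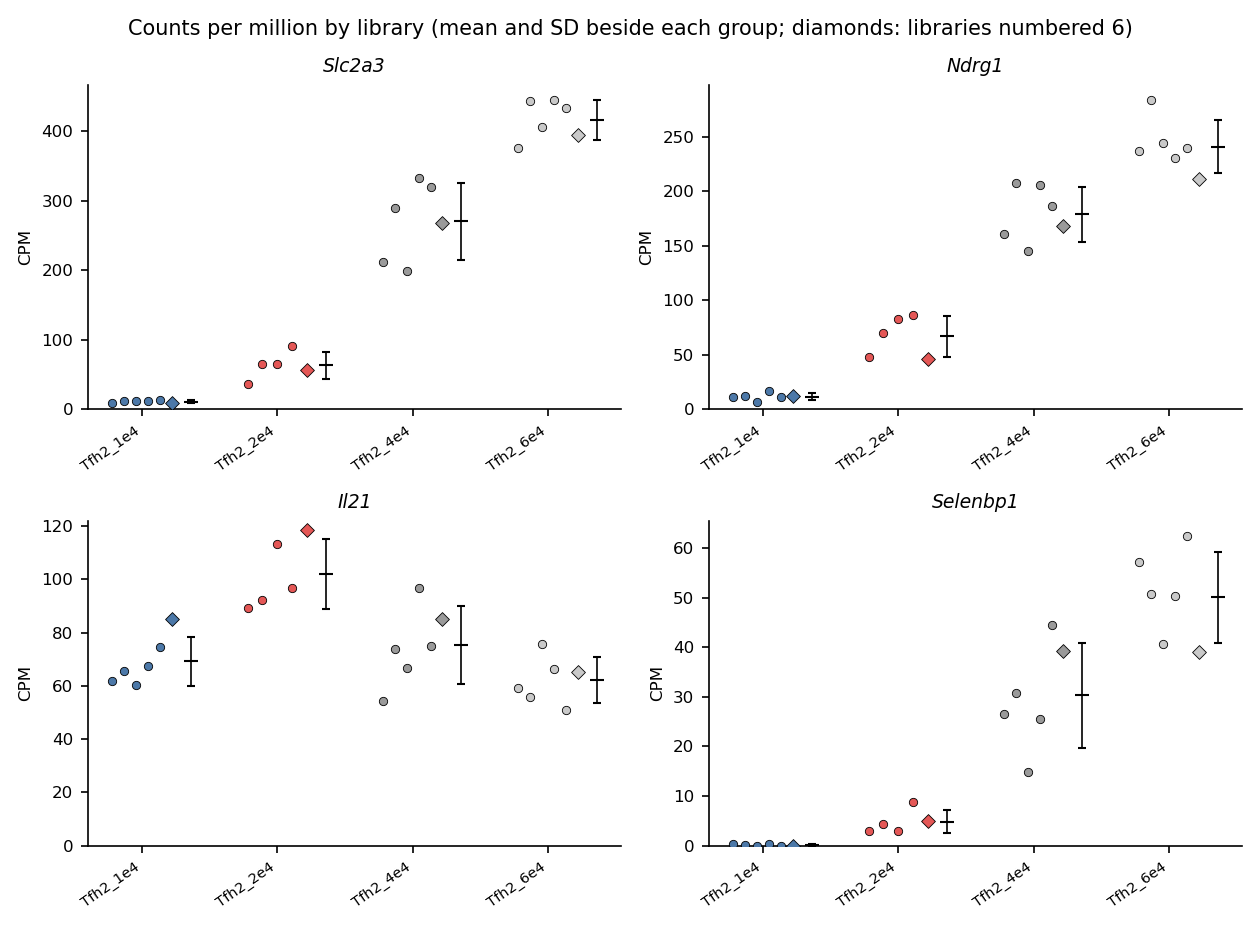
Level of Slc2a3, Ndrg1, Il21 and Selenbp1 in each Tfh2 library (y axis, CPM; x axis, group; diamonds, libraries numbered 6; dash and bar, mean and SD). The Tfh2_2e4 libraries lie above all Tfh2_1e4 libraries in each panel, and Il21 alone is lower again in Tfh2_4e4, at 75.3 CPM on average.

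Sequence near the start of the hypoxia genes was searched for 1 form of the core of the HIF site, ACGTG, on both strands, in RefSeq promoter windows of 300 bases (250 before and 50 after each start; build GRCm38.p6). The windows shown belong to 4 genes named here that hold the core, and are 30 bases each, 5′ to 3′ on the strand of the gene, with ACGTG, or CACGT where the core reads on the opposite strand, in capitals.
P4ha2: tgtgcatcgcatACGTGcagcgcgtggcgg
Bnip3: cgcacgcgccgcACGTGccacacgctcccc
Ddit4: agaacgttgcgaACGTGcgcccggtgccta
Hk2: aatgagcacatcCACGTcactgtccggggc
Hk2: agccacggaacaCACGTcccaactctggcg
The window of P4ha2 lies at chr11:54100834-54100863 on the plus strand. On the minus strand lie those of Bnip3 (chr7:138909596-138909625), Ddit4 (chr10:59951940-59951969) and Hk2 (chr6:82774489-82774518 and chr6:82774663-82774692). The core of Bnip3 is part of CACGTG, which is also the E-box that other factors bind. Slc2a3 and Ndrg1 had no promoter in the table used. Of the 31 hypoxia and glycolysis genes that rose, 27 had at least 1 window, and 20 of these (74.1%) held ACGTG. The share was 10 of 20 (50.0%) among members of the same lists that were tested and not called, 30.01% among all genes tested with a window and 21.8% over all 27025 genes of the table. The other form of the HIF core, GCGTG, gave no such order: it was held by 70.4% of the genes that rose, by 80.0% of those not called and by 57.5% of all genes tested. Either form was held by 92.6%, 90.0% and 68.8%, and CACGTG, which contains ACGTG, by 3 of the 27, 4 of the 20 and 12.01%. Of all 461 genes called higher, in any list or none, 349 had a window. Among these ACGTG was held by 128 (36.7%), GCGTG by 51.3%, either form by 66.8% and CACGTG by 12.3%. For GCGTG and for either form that is below the share over all genes tested. These 3 motifs were the ones searched, and they were chosen after the gene results were known. The hypoxia and glycolysis genes that rose had on average 1.48 windows, against 1.27 over the genes tested, which raises the chance of a match. A match does not show that a factor binds there.

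Hypoxia response genes that are not in the glycolysis list formed a list with 29 of 30 members tested. Of these 21 rose and 0 fell, where 4.06% of all genes tested rose and 1.2% fell. The list still holds genes linked to glycolysis, namely Pfkfb3, Pfkfb4, Pdk1 and Slc16a3. Nrn1, described below with Tfh2_2e4 replicate 6, is among the 21 that rose. The median log2 fold change of the list was 0.71, against 0.02 over all genes. For 16 of the 29 the libraries did not overlap, as for 2.45% of all genes in this direction. With Tfh2_2e4 replicate 6 left out, 17 rose. Bnip3, which marks mitochondria for removal, had 37.9, 70.8 and 95.2 CPM in Tfh2_1e4 (lowest, median and highest) and 149, 200, 176, 229 and 150 CPM in the Tfh2_2e4 libraries. It rose 2.63-fold (log2 fold change 1.40, SE 0.128, adjusted p = 3.66e-11). P4ha2, a collagen prolyl hydroxylase, stood at 3.29 to 6.47 CPM in Tfh2_1e4 and at 12.4 to 25.4 CPM in Tfh2_2e4, a 4.01-fold rise. The summed level of the list was 1502 to 1830 CPM in Tfh2_1e4 and 2271 to 2984 CPM in Tfh2_2e4, with no overlap. The list rose in the second step too, from Tfh2_2e4 to Tfh2_4e4, where 16 members were called higher and 0 lower, while 7.59% of all genes were called higher there. Both steps share the Tfh2_2e4 libraries.

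All 25 genes of the glycolysis and pentose phosphate list were tested, and 10 rose and 0 fell (median log2 fold change 0.52), against 4.06% and 1.2% of all genes. The same counts held without Tfh2_2e4 replicate 6. Beside Slc2a3, the members named by rule were Aldoc and Hk2. Aldoc, a brain-type aldolase, stood at 12.5, 20.8 and 34.8 CPM (lowest, median and highest) in Tfh2_1e4. The Tfh2_2e4 libraries held 88.3, 119, 97.0, 140 and 70.3 CPM, a 4.74-fold rise with replicate 5 again the highest. Hk2, the hexokinase that traps glucose in the cell, went from 66.2 to 83.3 CPM over Tfh2_1e4 to 114 to 172 CPM over Tfh2_2e4, 1.89-fold higher. Ldha, lactate dehydrogenase A, was higher by 0.33 on the log2 scale and did not pass (adjusted p = 0.117 by edgeR). It was called with the number range of the libraries (1 to 3 or 4 to 6) as a factor (0.36, adjusted p = 0.00636) and with the mitochondrial rRNA share as a covariate (0.42, adjusted p = 0.00828). Slc2a1, which encodes the widely expressed transporter GLUT1, had 12 and 25 counts over the groups, too few to read beside Slc2a3. Gapdh, Pgk1, Eno1 and Pgam1, which have many processed pseudogenes, held only 127, 258, 600 and 404 counts over the 6 Tfh2_1e4 libraries and were not called. How reads that map to several places were counted is not given in the sources used here, so the levels of these 4 genes are uncertain. Ldha, Slc2a1 and these 4 were named after their values were seen.

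**Figure D2:**
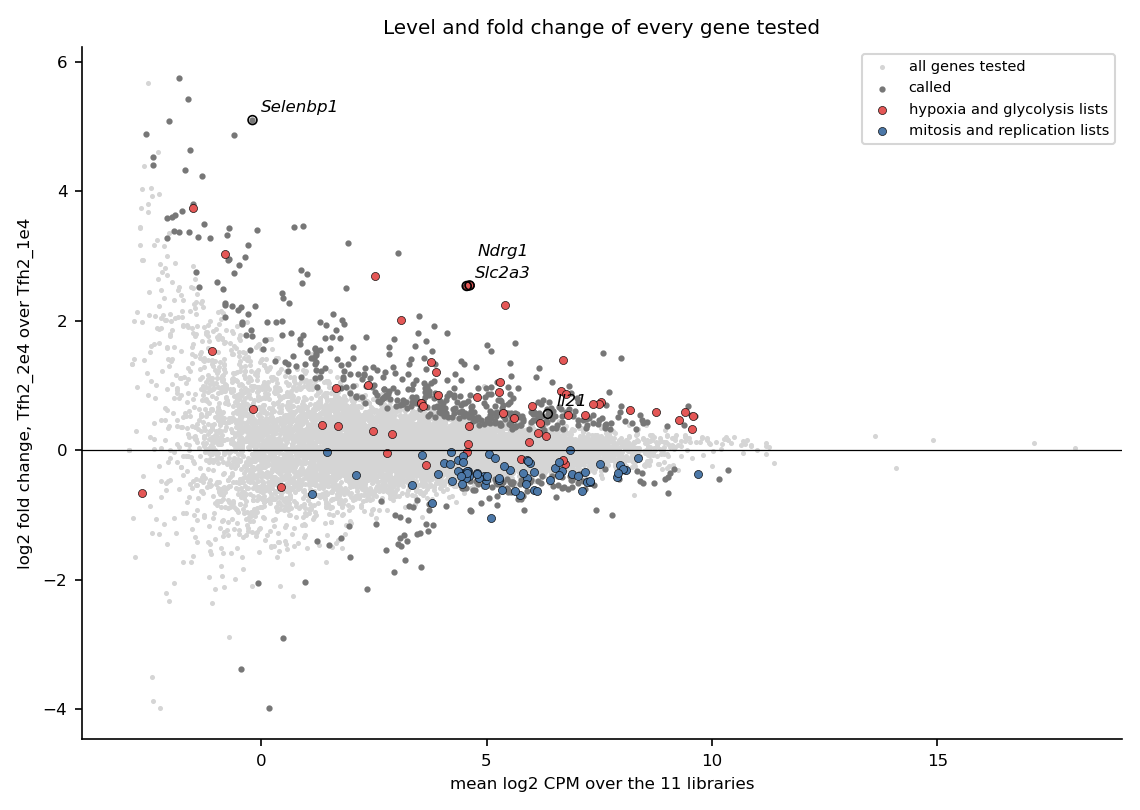
Mean log2 CPM over the 11 libraries (x axis) and log2 fold change of Tfh2_2e4 over Tfh2_1e4 (y axis) for all 11357 genes tested, with called genes in dark grey, hypoxia and glycolysis lists in red and mitosis and replication lists in blue. Slc2a3 and Ndrg1 lie together at 2.54 and 2.55, far above most red points, while the blue points lie below 0.

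Of the HIF factors and their partners, 6 of 8 were tested and 2 rose, where 4.06% of all genes tested rose. Fitted on the 11 libraries alone, 5 were tested and 1 rose. Hif1a, the oxygen-regulated subunit, held 170 to 255 CPM in Tfh2_1e4 and 251 to 411 CPM in Tfh2_2e4, ranges that met at their ends. It rose 1.5-fold (log2 fold change 0.58, SE 0.127, adjusted p = 0.00172). Hif3a, whose product can counter HIF-1α, rested on 6 and 30 counts (log2 fold change 2.75, SE 0.792, adjusted p = 0.0287; named after its values were seen), and missed the threshold when any of Tfh2_1e4 replicates 1, 2, 3 or 5 or Tfh2_2e4 replicates 1 or 2 was left out (2.37 to 2.63, adjusted p from 0.064 to 0.0986). By edgeR, none of 36 nuclear-encoded respiratory chain genes was called (median -0.09), where 8 had an unadjusted p under 0.05 and the DESeq2 test called 1 lower. None of 8 mitochondrial mRNAs was called either (median 0.02), with 0 under an unadjusted p of 0.05 and 0 by the DESeq2 test. Over all genes tested edgeR called 5.26%.

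The 10 largest rises held Ndrg1, Slc2a3, Aldoc and P4ha2, and beside these H2-Ab1, Mgarp, Ly6c1, Kbtbd11, Sdc4 and Espn. H2-Ab1, the beta chain of an MHC class II molecule, held 0.727, 3.06 and 7.47 CPM in Tfh2_1e4 and 16.6, 25.2, 25.0, 42.4 and 33.7 CPM in Tfh2_2e4. It rose 8.28-fold (log2 fold change 3.05, SE 0.250, adjusted p = 1.98e-12). Its partner chain H2-Aa had 0 counts in all 11 libraries, which allows up to 0.0517 CPM over Tfh2_1e4 and 0.0784 CPM over Tfh2_2e4 (3 counts over a group), and Cd74, the invariant chain, had 34 and 14 counts and was not called. Those 2 genes were named after their values were seen. Ly6c1, a surface protein of activated and memory T cells, rose 3.77-fold, from 7.86 ± 1.53 CPM (SD, n = 6) to 29.7 ± 7.93 CPM (SD, n = 5). Sdc4, a heparan sulfate proteoglycan, rose 3.51-fold, from 6.30 ± 0.726 CPM (SD, n = 6) to 22.3 ± 6.06 CPM (SD, n = 5). Mgarp, a mitochondrial membrane protein, Kbtbd11 and Espn, an actin-bundling protein, rose by 2.07, 1.82 and 1.69 on the log2 scale.

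The largest falls were smaller in size and in level. Lhx6, a LIM homeobox factor, fell from 12.7, 19.8 and 31.8 CPM (lowest, median and highest) to 8.52, 7.04, 5.62, 6.62 and 2.87 CPM (log2 fold change -1.80, SE 0.302, adjusted p = 4.07e-05). Gadd45b, a stress gene that TGF-β induces in several cell types, fell from 15.6 ± 2.33 CPM (SD, n = 6) to 4.86 ± 1.74 CPM (SD, n = 5), with all 5 libraries under all 6. Cx3cr1, the fractalkine receptor, fell 2.56-fold and Il1rn, the IL-1 receptor antagonist, 2.48-fold. Fam83d, a spindle protein, fell 2.46-fold and Rasgrp3, a Ras activator, 2.43-fold. Tgfbi, a matrix protein named for its induction by TGF-β, fell 2.39-fold. Gphb5, a hormone subunit, fell 2.23-fold and Ak1, adenylate kinase 1, 2.11-fold. The call of Tgfbi was lost without Tfh2_2e4 replicate 6 (-1.19 on the log2 scale, adjusted p = 0.0573), Tfh2_2e4 replicate 5 (-1.11) or Tfh2_1e4 replicates 1 or 3 (-1.20 and -1.21). That of Rasgrp3 was lost without Tfh2_2e4 replicate 5 (-1.11), and that of Fam83d without Tfh2_2e4 replicate 2 (-1.16) or Tfh2_1e4 replicate 6 (-1.19).

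Of 20 listed SMAD response genes 17 were tested, of which 7 fell and 2 rose (median log2 fold change -0.35). Of all genes 1.2% fell and 4.06% rose. Pmepa1, a TGF-β-induced inhibitor of SMAD signalling, held 616, 644 and 685 CPM (lowest, median and highest) in Tfh2_1e4. The Tfh2_2e4 libraries held 464, 459, 398, 352 and 374 CPM, all under the Tfh2_1e4 libraries, and the fall was 1.58-fold (log2 fold change -0.66, SE 0.0898, adjusted p = 7.24e-07). Sox4, a transcription factor induced by TGF-β, held 197 to 286 CPM in Tfh2_1e4 and 170, 98.9, 132, 106 and 111 CPM in Tfh2_2e4, a 1.91-fold fall. Tgfbr1, the type I receptor itself, fell 1.90-fold, from 33.6 ± 4.66 CPM (SD, n = 6) to 17.7 ± 4.02 CPM (SD, n = 5). In contrast Tgfbr3, the co-receptor betaglycan, named after its values were seen, rose 1.68-fold. When Tfh2_2e4 replicate 6 was left out the counts were 3 lower and 2 higher, and Pmepa1, Sox4 and Tgfbr1 were the 3 that fell. The count of falls was also 3 without Tfh2_2e4 replicate 5 and 4 without Tfh2_2e4 replicate 4 or Tfh2_1e4 replicates 3 or 5. Tgfbr3 was not called without Tfh2_1e4 replicates 3 or 4 or Tfh2_2e4 replicates 2 or 5 (0.66 to 0.67 on the log2 scale). In the second step 3 members were called lower and 2 higher, where 5.4% of all genes were called lower and 7.59% higher.

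**Figure D3:**
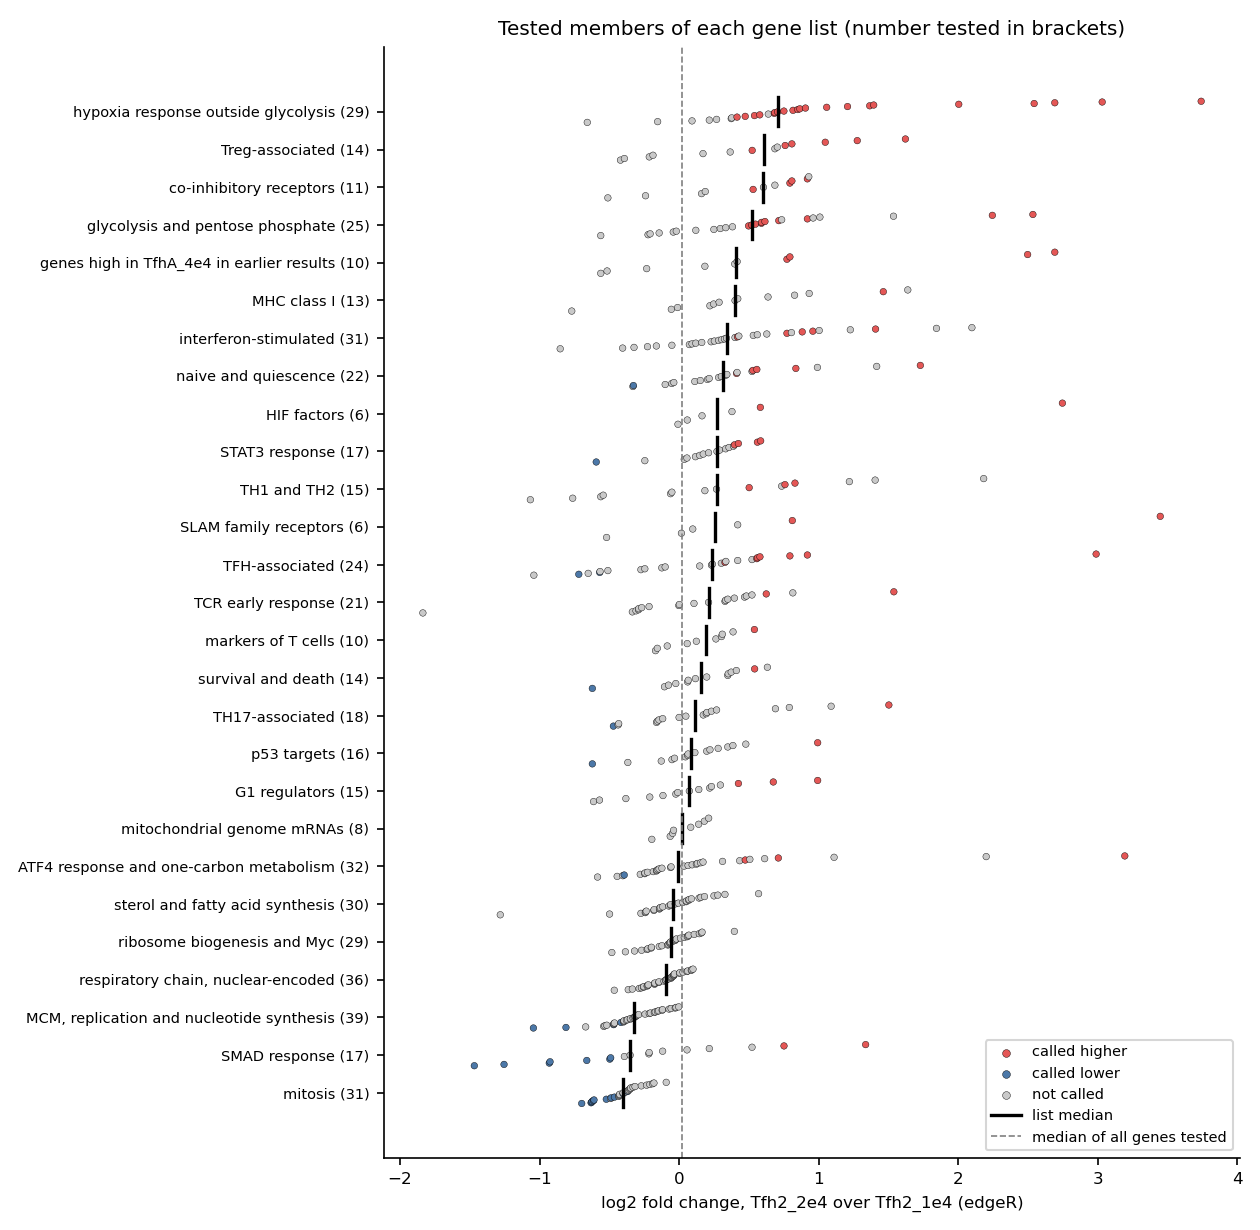
Log2 fold change of Tfh2_2e4 over Tfh2_1e4 (x axis) of every tested member of the 27 gene lists with at least 6 tested members (y axis, ordered by median; red, higher; blue, lower; grey, not called). The hypoxia list lies at the top with a median of 0.71 and the mitosis list at the bottom with -0.40.

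The TFH-associated list had 24 of 30 members tested, of which 7 rose and 2 fell (median 0.24), where 4.06% of all genes rose and 1.2% fell. Beside Il21, Icos and Cd200 were among those that rose and Angptl2 among those that fell. Icos, the co-stimulatory receptor that TFH cells need, went from 31.2, 37.9 and 56.5 CPM (lowest, median and highest) to 55.8, 62.8, 38.1, 63.2 and 77.0 CPM, so that the groups overlapped. It rose 1.49-fold (log2 fold change 0.58, SE 0.158, adjusted p = 0.018). Cd200, a co-inhibitory ligand of TFH cells, rose 1.89-fold with replicate 6 far above the rest of its group, 33.8 against 12.5 to 18.2 CPM. Angptl2, a secreted glycoprotein, fell 1.65-fold, from 118 ± 19.4 CPM (SD, n = 6) to 71.5 ± 16 CPM (SD, n = 5). Without Tfh2_2e4 replicate 6 the list held 3 rises and 1 fall, nearer the share over all genes, and Icos and Cd200 stood at 0.45 (adjusted p = 0.114) and 0.58 (adjusted p = 0.12) on the log2 scale. Without Tfh2_1e4 replicate 4 the list held 4 rises and 1 fall. Icos also missed the threshold without Tfh2_1e4 replicates 2 or 4 or Tfh2_2e4 replicate 5 (0.52, 0.51 and 0.56).

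Other defining TFH genes gave no call. Maf held 700 to 898 CPM in Tfh2_1e4 and 798, 655, 808, 693 and 627 CPM in Tfh2_2e4, overlapping ranges with a log2 fold change of -0.12 (SE 0.106, adjusted p = 0.672). Pdcd1, the receptor PD-1, held 83.9, 96.3 and 120 CPM against 95, 83.3, 55.7, 55.8 and 60.6 CPM (log2 fold change -0.51, SE 0.170, adjusted p = 0.0726). Its adjusted p ran from 0.00301 to 0.229 over the alternatives, and 6 of them called it lower. Cxcr5, the homing receptor for B cell follicles, stood at 15.5 ± 3.51 CPM (SD, n = 6) and 9.85 ± 2.87 CPM (SD, n = 5), with an adjusted p of 0.182 by edgeR. Bcl6, the defining transcription factor, had 13 counts in Tfh2_1e4 and 27 in Tfh2_2e4 and was under the filter. With no filter its log2 fold change was 1.52 and was not called (adjusted p = 0.577 by edgeR).

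Of 18 tested TH17-associated genes 1 rose and 1 fell (median 0.11), close to the shares over all genes (4.06% and 1.2%), and without Tfh2_2e4 replicate 6 none was called. Ccr6, the receptor that guides TH17 cells, held 150, 167 and 173 CPM in Tfh2_1e4 and 131, 145, 111, 124 and 83.9 CPM in Tfh2_2e4. It fell 1.39-fold (log2 fold change -0.47, SE 0.135, adjusted p = 0.0282), and stood at -0.38 on the log2 scale without replicate 6 (adjusted p = 0.119). It was not called either without Tfh2_1e4 replicates 3 or 5 or Tfh2_2e4 replicates 4 or 5 (-0.45 to -0.49). Sox5, a factor that acts with c-Maf in TH17 cells, rose by 1.5 on the log2 scale with its highest level, 12.9 CPM, in replicate 6, and stood at 0.75 without it (adjusted p = 0.475). Without any of Tfh2_1e4 replicates 2, 3, 5 or 6 it was not called (1.27 to 1.54). Il17a held 129 to 260 CPM and 84.9 to 162 CPM and Il17f 144 to 196 CPM and 99.0 to 179 CPM, overlapping in both cases, with log2 fold changes of -0.44 and -0.16 that did not pass. Il10 stood at 0.00 and was not called.

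Of the regulatory T cell genes 14 were tested, and 6 rose and 0 fell (median 0.61), as they also did without replicate 6, where 4.06% of all genes rose. Those named encode surface receptors. Tnfrsf9, the receptor 4-1BB, held 16.4, 19.0 and 25.1 CPM in Tfh2_1e4 and 27.6, 52.6, 59.3, 94.7 and 76.9 CPM in Tfh2_2e4, a 3.08-fold rise. Tnfrsf18, the receptor GITR, rose 2.07-fold, from 63.5 ± 2.85 CPM (SD, n = 6) to 131 ± 23.6 CPM (SD, n = 5). Izumo1r, the folate receptor 4, rose 1.69-fold. Foxp3, which defines regulatory T cells, had 62 counts in Tfh2_1e4, with replicate 1 at 3.20 CPM and the others at 0.208 to 1.37 CPM. It had 7 counts in Tfh2_2e4, and with no filter it was not called (adjusted p = 0.266 by edgeR). Il2ra, the alpha chain of the receptor for IL-2, stood at 0.17 on the log2 scale and was not called.

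Of 11 co-inhibitory receptors tested 4 rose and 0 fell, against 4.06% and 1.2% of all genes. Ctla4, which also stands in the regulatory list, rose 1.75-fold, from 102 ± 24 CPM (SD, n = 6) to 179 ± 36.6 CPM (SD, n = 5). Vsir, the checkpoint protein VISTA, rose 1.45-fold. The other 2, Btla and Cd200, were called only with replicate 6 in the fit. In the STAT3 response list 4 of 17 rose and 1 fell. Il21r, the receptor for IL-21, rose 1.5-fold beside its ligand, from 45.4 to 65.7 CPM over Tfh2_1e4 to 62.8 to 93.8 CPM over Tfh2_2e4. Socs2, a cytokine signalling inhibitor, fell 1.51-fold, with 110 to 148 CPM against 80.4 to 99.4 CPM. Of the TH1 and TH2 genes 3 of 15 rose, namely the IL-12 pathway genes Il12rb1 (1.69-fold) and Stat4 (1.78-fold) and the IL-4 receptor chain Il4ra (1.42-fold). Gata3 and Tbx21, the TH2 and TH1 factors, gave no call, and Ifng had 9 and 5 counts. In the SLAM family 2 of 6 tested rose, Cd84 by 1.76-fold and Slamf7, named after its values were seen, by 10.9-fold from 37 counts to 286.

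Of the early T cell receptor response genes 2 of 21 tested rose and 0 fell (median 0.21), where 4.06% of all genes rose and 1.2% fell. They were Ier3, an early response gene that rose 2.91-fold (21.3 ± 3.31 CPM, SD, n = 6, against 62.2 ± 16.8 CPM, SD, n = 5), and Fosl2, an AP-1 subunit that rose 1.54-fold. Of 22 genes of naive or quiescent T cells 5 rose and 1 fell. Satb1, a chromatin organiser, rose 1.44-fold and Pik3ip1, a brake on PI3K, rose 1.79-fold. In the interferon-stimulated list 5 of 31 rose and 0 fell (median 0.34), beside the same 4.06% and 1.2%, and 3 rose when any of Tfh2_1e4 replicates 3, 4 or 5 or Tfh2_2e4 replicates 2 or 5 was left out. Gbp2, a guanylate-binding protein, rose 1.84-fold, from 88.7 ± 12.2 CPM (SD, n = 6) to 164 ± 10.1 CPM (SD, n = 5). Ifi27l2a and Slfn5 rose 1.94-fold and 2.66-fold. H2-Q7 alone rose of 13 MHC class I genes tested (log2 fold change 1.46), and its sequence is close to that of its neighbours, so its count is uncertain. Fitted on the 11 libraries alone, H2-Q7 stood at 1.45 and was not called (adjusted p = 0.102 by edgeR).

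All 31 mitosis genes and all 39 tested replication and nucleotide synthesis genes had negative log2 fold changes in the fit of all libraries. Of the mitosis genes 11 fell and 0 rose (median -0.40), and 10 fell without Tfh2_2e4 replicate 6. Of all genes 1.2% fell. Ccnb1, the cyclin of entry into mitosis, held 61.8, 66.8 and 74.9 CPM in Tfh2_1e4 and 53.8, 37.7, 32.6, 32.3 and 50.4 CPM in Tfh2_2e4. It fell 1.62-fold (log2 fold change -0.70, SE 0.159, adjusted p = 0.00314), with replicates 1 and 6 closest to Tfh2_1e4. Ccnb2 fell 1.44-fold and Prc1, which bundles spindle microtubules, 1.38-fold. Of the replication genes 4 fell and 0 rose (median -0.32). Rrm2, the small subunit of ribonucleotide reductase, held 41.2, 47.9 and 58.2 CPM against 25.8, 24.3, 25.4, 23.8 and 17.4 CPM, and fell 2.06-fold (adjusted p = 0.000458 by edgeR). Rrm1, its large subunit, and Mcm6, of the replicative helicase, fell 1.38-fold and 1.33-fold. Without Tfh2_2e4 replicates 2 or 5 the replication list held 2 falls. Mcm6 was not called then (-0.35 and -0.39), nor without Tfh2_1e4 replicate 3 (-0.38). In the second step 24 mitosis and 26 replication genes were called lower and none higher, with 5.4% of all genes called lower there.

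Of 15 G1 regulators, by contrast, 3 rose and 0 fell, where 4.06% of all genes rose and 1.2% fell. Cdkn1a, the inhibitor p21, held 70.3, 85.5 and 93.8 CPM in Tfh2_1e4 and 106, 183, 130, 200 and 226 CPM in Tfh2_2e4, a 1.99-fold rise (adjusted p = 2.25e-07 by edgeR). Ccnd2, cyclin D2, rose 1.6-fold, from 576 ± 83.5 CPM (SD, n = 6) to 920 ± 114 CPM (SD, n = 5). Rbl2, the pocket protein p130, rose 1.34-fold, a call that was lost without any of Tfh2_1e4 replicates 1, 3, 5 or 6 or Tfh2_2e4 replicates 2, 4 or 5 (0.36 to 0.42 on the log2 scale). Cdkn1a was the sole gene of 16 p53 targets that rose and Pmaip1, the death effector NOXA, the sole one that fell (1.54-fold). Bcl2l11, the death effector BIM, rose 1.46-fold among 14 genes of survival and death. Pmaip1 was not called without Tfh2_1e4 replicate 6 or Tfh2_2e4 replicates 2, 4 or 5 (-0.54 to -0.58), nor Bcl2l11 without Tfh2_1e4 replicates 2 to 5 or Tfh2_2e4 replicates 4 or 5 (0.35 to 0.55).

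Calls in the lists of biosynthesis stand beside the 5.26% of all genes tested that were called by edgeR. None of 29 ribosome biogenesis and Myc target genes was called by edgeR (median -0.06), where 2 had an unadjusted p under 0.05 and the DESeq2 test called 1 lower. None of 30 sterol and fatty acid synthesis genes was called by edgeR (median -0.04), where 4 had an unadjusted p under 0.05 and the DESeq2 test called 0. Of 32 genes of the ATF4 response and one-carbon metabolism 3 rose and 1 fell (median -0.01), against 4.06% and 1.2% of all genes. Vldlr, a lipoprotein receptor, rose 9.16-fold, from 0.883, 1.30 and 2.12 CPM (lowest, median and highest) to 6.74, 14, 13.5, 16.6 and 12 CPM. Mthfd1l, a mitochondrial folate enzyme, rose 1.64-fold and Ddit4, an mTOR inhibitor that is also in the hypoxia list, 1.39-fold. Of the sterol and fatty acid genes, 10 of 30 were called lower and 0 higher in the second step, against 0 and 0 in the first. Of all genes 5.4% were called lower and 7.59% higher in the second step. That the 2 steps differ for this list was not tested.

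Replicate 6 of Tfh2_2e4 differed from its group in a named set of genes. Of 10 genes that were high in TfhA_4e4 in earlier results of these data, 8 had their highest Tfh2_2e4 level in replicate 6. The share of all genes tested with their highest level in this library was not counted, so the 8 have no baseline. The list summed to 259 CPM in this library, to 94.9 to 115 CPM in the other 4 and to 91.5 to 116 CPM in Tfh2_1e4. Nrn1, a neuritin that is expressed in regulatory and anergic T cells, held 61.1 CPM in replicate 6 and 4.12 to 18.5 CPM in the others. S100a6, a calcium-binding protein named after its values were seen, held 67.2 CPM against 17.7 to 30.4 CPM, and Tbx21 4.45 CPM against 0.189 to 0.844 CPM. A single Tfh2_4e4 library, replicate 3, was also high in these 3 genes, with 90.0, 75.9 and 4.22 CPM. Of the list 4 genes rose with replicate 6 in the fit, where 4.06% of all genes tested rose, and 2 without it. Nrn1 then stood at 1.69 on the log2 scale (2.69 with it) and Tg, the thyroglobulin gene, at 2.18 (2.50 with it), both still called. Tg overlaps Sla on chromosome 15, from 66670754 to 66850721 against 66780819 to 66831829, and the strand setting of the count is not given in the sources used here. Ebf1, a B cell factor also named after its values were seen, held 3.71 CPM in replicate 6 and 0.275 to 1.27 CPM in the others, while Pax5 was at 0, and without this library it stood at 1.42 and was not called. Nor was it without Tfh2_1e4 replicates 2, 3 or 6 (2.02 to 2.1). What replicate 6 holds besides was not tested.

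**Figure D4:**
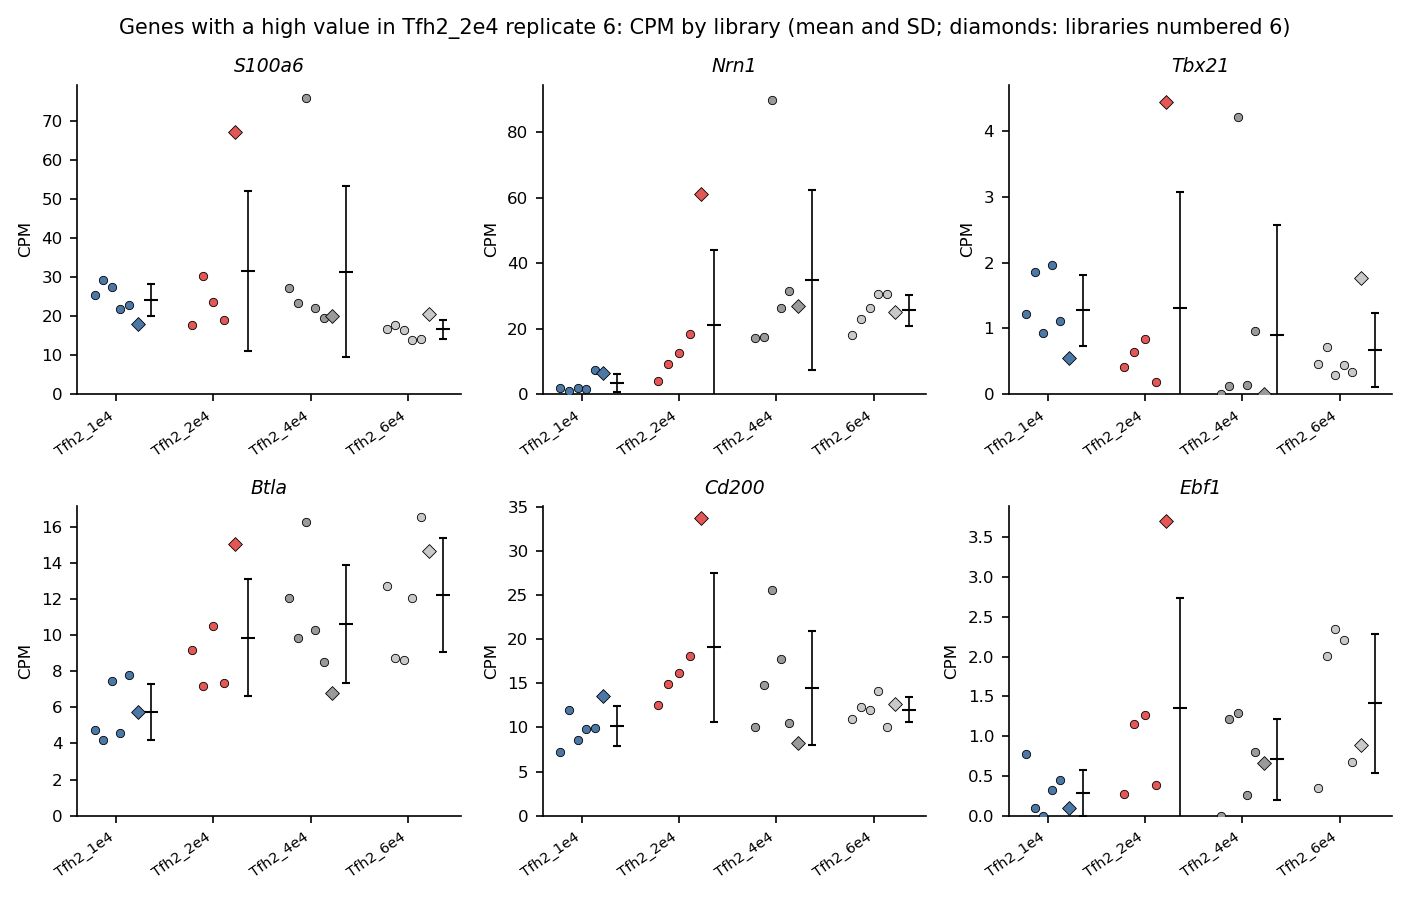
Level of 6 genes with a high value in Tfh2_2e4 replicate 6 (y axis, CPM; x axis, group; diamonds, libraries numbered 6; dash and bar, mean and SD, with bars ending at 0). S100a6 stands at 67.2 CPM in this library against at most 30.4 CPM in the rest of Tfh2_2e4, and a Tfh2_4e4 library is similarly high.

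Whether the first step, from 1e4 to 2e4, differed from the second, from 2e4 to 4e4, was tested gene by gene as the difference of the 2 log2 fold changes, with the shared Tfh2_2e4 libraries in the model. The label number doubles in both. Of 11357 genes 12 differed (0.106%), 7 with the larger signed value in the first step and 5 with the larger signed value in the second. Egr1, an early response factor downstream of the T cell receptor, was the only one of the 12 that was called under all 21 alternatives. It held 61.4, 63.1 and 76.7 CPM in Tfh2_1e4, 84.0, 80.1, 71.8, 73.2 and 106 CPM in Tfh2_2e4 and 33.0 ± 3.88 CPM in Tfh2_4e4 (SD, n = 6). The first step was 0.35 on the log2 scale and not called (adjusted p = 0.113), the second -1.33 and called, and their difference 1.68 (adjusted p = 1.35e-05). With the library number as a block, which the labels do not name as a pairing, edgeR called the first step of Egr1 (0.36, adjusted p = 0.0402). Il21 rose by 0.56 in the first step and fell by 0.44 in the second, a difference of 1.0 (adjusted p = 0.0305). Without Tfh2_2e4 replicate 6 this difference was 0.89 and was not called (adjusted p = 0.205), nor was it without replicate 4 (adjusted p = 0.0937). Its call held under 17 of 21 alternatives, with adjusted p-values from 0.00245 to 0.205.

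Myb, a factor of T cell survival, Phf11b, a PHD finger gene, and Sla, an adaptor that dampens T cell receptor signals, also rose and then fell. Their log2 fold changes were 0.52 and -0.50 for Myb, 0.85 and -0.96 for Phf11b and 0.78 and -0.42 for Sla. Ms4a6b rose by 1.38 in the first step and stood at 0.05 in the second. Its difference of 1.32 fell to 0.68 without Tfh2_2e4 replicate 6 (adjusted p = 0.769), the library with its highest level in the group, 67.3 CPM. Hspa5, the endoplasmic reticulum chaperone BiP, was level at first (-0.06) and fell by 0.71 after. The opposite order was seen for Ctla2a, a protease inhibitor, Timp1, an inhibitor of metalloproteinases, and B3gnt8, a glycosyltransferase. Their first steps of 0.23, 0.06 and -0.19 were not called, and their second steps of 1.33, 1.10 and 0.99 were. Itpr3, a calcium channel of the endoplasmic reticulum, fell by 0.63 and then rose by 0.47, and Fermt1, with 8 counts in Tfh2_2e4, fell by 3.97 and rose by 2.26. Slc2a3, Ndrg1 and Selenbp1 gave differences of 0.43, 1.12 and 2.41 that did not pass (adjusted p = 0.879, 0.098 and 0.235 by edgeR). Leaving out Tfh2_2e4 replicate 4 or 6 gave 4 genes whose steps differed, Tfh2_1e4 replicates 2 or 3 gave 6, Tfh2_1e4 replicate 1 gave 7 and Tfh2_1e4 replicate 5 gave 20. Of the 12, Egr1 (1.48, adjusted p = 0.000788) and Sla (1.28, adjusted p = 0.0211) were still called without Tfh2_2e4 replicate 6. The other 10 were not: beside Il21 and Ms4a6b, the differences of Phf11b (1.68, adjusted p = 0.053), Myb (1.07, adjusted p = 0.111) and Hspa5 (0.62, adjusted p = 0.206) then missed the threshold. So did those of Itpr3 (-0.91, adjusted p = 0.165), Fermt1 (-5.77, adjusted p = 0.234), Ctla2a (-0.90), Timp1 (-0.87) and B3gnt8 (-0.96), the last 3 each with an adjusted p of 0.28.

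**Figure D5:**
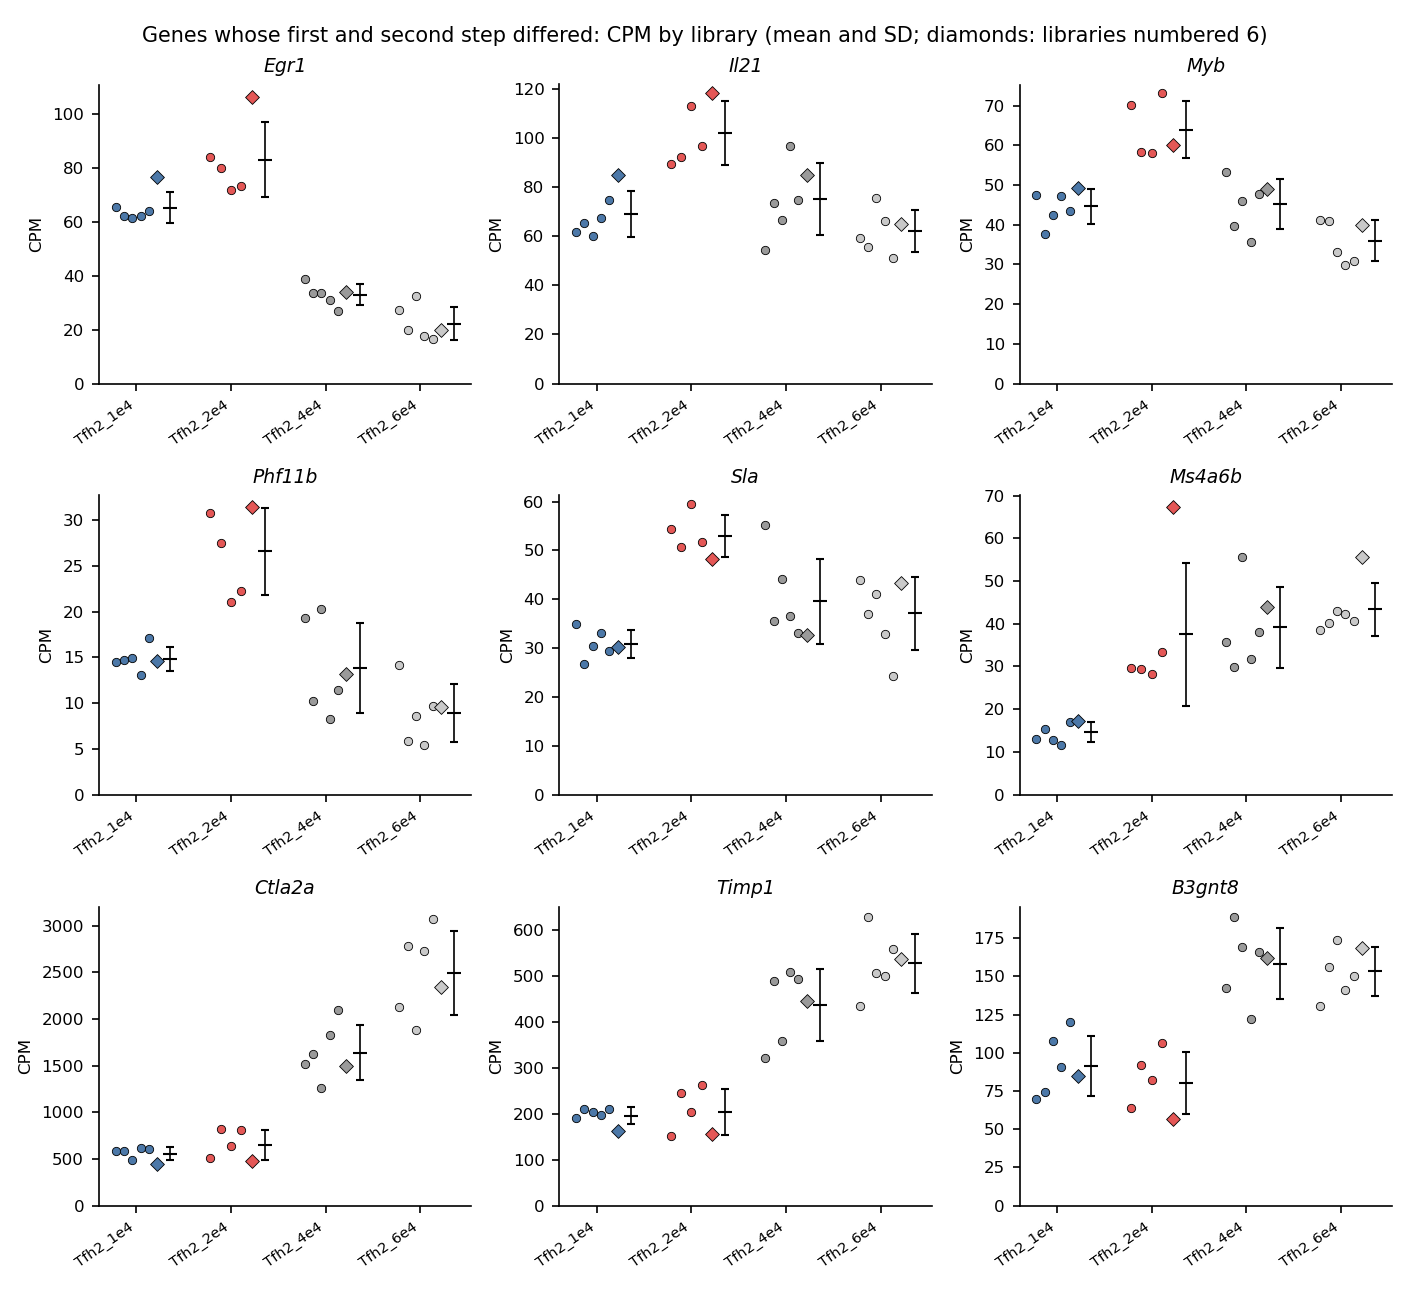
Level of 9 of the 12 genes whose 2 steps differed (y axis, CPM; x axis, group; diamonds, libraries numbered 6; dash and bar, mean and SD). Egr1 goes from 65.3 to 83.1 and then 33.0 CPM on average, while Ctla2a and Timp1 are level at first and higher from Tfh2_4e4 on.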

How the data were processed

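RNA was measured in 34 libraries of mouse CD4 T cells with a 3′ mRNA kit (Lexogen, 50 ng of total RNA each, per the labels' protocols). The deposited values are raw counts per gene identifier and library, 1 file each. The build was mm10, and featureCounts 1.6.4 and STAR 2.7.2b were used, per the submitters' processing notes; strand setting and treatment of multiply mapped reads are not given in the sources used here. Of 27179 identifiers 25275 matched a symbol of the RefSeq annotation of GRCm38.p6, and of 645 list entries 642. All 34 libraries and 6 groups were fitted in edgeR 4.0.16 (R 4.3.3) with TMM scaling, its filter on low counts (11357 genes kept) and the quasi-likelihood test, with Benjamini-Hochberg adjusted p under 0.05 over all genes tested as the call. CPM values are TMM-scaled. Values per library were compared by exact permutation. The comparison, its 32 gene lists and the 4 leading genes were chosen with earlier results of these data known. Beyond those, genes were named by rule: 14 lineage genes, the 10 largest rises and falls with mean log2 CPM no lower than 3 and no overlap of libraries, up to 3 called members per list with mean log2 CPM no lower than 1, and genes whose steps differed. Some genes that the rule names are not reported here. The procedure was tested on simulated data. Alternatives were DESeq2 1.42.0, other scaling, no filter, fewer groups, blocks, covariates and left-out libraries.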

Additional observations from a re-analysis of the deposited data

Results flagged for a closer look

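Within the groups of 5 and 6 libraries, 222 sets of values were searched for a library far from the others. For normally spread values chance gives about 1 in 20. That rate does not hold for genes with counts in a single library of a group, such as Ifng. The genes searched were those named here. Among them S100a6, Ebf1, Pgk1, Cd74 and Pgam1 were named after their values were seen, and Nrn1, Tg and Tbx21 were listed from earlier results. The number of flags in Tfh2_2e4 replicate 6 therefore depends in part on that choice. Of the levels of named genes 18 stood apart, and 11 of these were in Tfh2_2e4 replicate 6: Nrn1 (61.1 CPM), S100a6 (67.2 CPM), Ms4a6b (67.3 CPM), Cd200 (33.8 CPM), Pgk1 (24.9 CPM), Tg (16.4 CPM), Sox5 (12.9 CPM), Tbx21 (4.45 CPM), Ebf1 (3.71 CPM) and Foxp3 (0.556 CPM) as high values and Rrm2 (17.4 CPM) as a low one. The same library and Tfh2_1e4 replicate 6 stood apart by their genes with a count, 13239 and 13137. Replicate 6 of Tfh2_1e4 was high in Ctla4 (149 CPM) and Egr1 (76.7 CPM), and replicate 4 in Pgam1 (11.6 CPM). Angptl2 was high in Tfh2_2e4 replicate 1 (99.5 CPM) and Cd74 in replicate 5 (2.08 CPM). Ifng had counts only in replicate 2 of each group (0.883 CPM in Tfh2_1e4 and 0.640 CPM in Tfh2_2e4).

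The first step minus the second, on the log2 scale, differed from 0 by a test of the difference itself for Egr1 (1.68), Phf11b (1.80), Ms4a6b (1.32), Sla (1.20), Myb (1.02), Il21 (1.0) and Hspa5 (0.65). The second step had the larger signed value for Fermt1 (-6.24), B3gnt8 (-1.18), Itpr3 (-1.10), Ctla2a (-1.10) and Timp1 (-1.04). For Fermt1, which had few counts in Tfh2_2e4, and Itpr3 the first step, a fall, was the larger in size. Without Tfh2_2e4 replicate 6, Egr1 and Sla alone of these 12 were still called, and Ms4a6b stood at 0.68 (adjusted p = 0.769 by edgeR). Of these 12, Phf11b, Sla and Itpr3 were called under 18 of 21 alternatives and Hspa5 under 10.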

How the results depend on the processing

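The 597 changed genes, 461 higher and 136 lower, became 589 with DESeq2 size factors, 574 with no filter, 537 with the mitochondrial rRNA share as a covariate, 707 with the number range (1 to 3 or 4 to 6) as a factor and 701 by the DESeq2 test. Leaving out 1 library at a time gave 428 to 598 changed genes, 352 to 470 higher and 76 to 128 lower, and 76 was the count without Tfh2_2e4 replicate 5. Without both libraries numbered 6, an alternative chosen after seeing the data, 464 changed, 84 of them lower. With only the groups compared in the fit, 292 genes were higher. The cause was not tested. The replicate block gave 724 changed genes, 581 of them among the 597, and called the first step of Egr1 (0.36, adjusted p = 0.0402) and Ldha (0.34, adjusted p = 0.00385). Same-numbered libraries correlated in their deviations from group means with r from 0.053 to 0.255 over all genes tested, 1 of 5 numbers over 0.1, so the numbers were not taken as a pairing; 3 of 5 Tfh2_2e4 libraries correlated best with their own number. Over the 6733 genes with a mean log2 CPM over 3, r ran from 0.191 to 0.476, all 5 over 0.1, which is a hint from the data and not from the design.

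The 12 genes whose steps differ were the least stable count: 33 with no filter, 1 with only the groups compared, 44 with the replicate block, 23 with the number range, 29 by the DESeq2 test, 1 without both libraries numbered 6, and 4 to 20 with 1 library left out. Of 82 named genes called, 65 stayed past the threshold under every alternative and none turned direction. Rbl2, Sox5 and Bcl2l11 lost their call most often, in 10, 10 and 8 of 21 alternatives.

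Genes that turned direction were all uncalled. Il10, at 0.00, took -0.0063 (DESeq2 size factors), -0.0089 (only the groups compared), -0.046 (replicate block), -0.025 (number range), -0.029 (rRNA covariate), -0.0072 (without the 2 identifiers) and -0.0049 (DESeq2 test), and -0.0868 to 0.0572 with 1 library left out. With 1 library left out, Tbx21 ran from -1.22 (without Tfh2_2e4 replicate 6) to 0.41, S100a6 from -0.088 (without the same library) to 0.56, Timp1 from -0.049 to 0.14 and Cd74 from -2.46 to 0.087. Without both libraries numbered 6, Tbx21 stood at -1.37 and S100a6 at -0.15. The difference in the share of the 2 leading identifiers, 0.554 percentage points, ran from -0.712 to 1.91. Few counts stand behind Bcl6, Foxp3, Ifng, Slc2a1 and Hif3a.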
